A study of Mus musculus with 2 samples.

Results

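The dual-specificity MAP kinase phosphatases are a small family of enzymes that switch off MAP kinases. They were measured here in mouse skin wounds with and without epidermal beta-catenin. The family was taken as 10 genes, Dusp1, Dusp2, Dusp4, Dusp5, Dusp6, Dusp7, Dusp8, Dusp10, Dusp14 and Dusp16, and every array probe annotated to one of these symbols was used. This gave 17 of the 25697 probes on the array, for 9 of the 10 genes. No probe used here carried the symbol of Dusp5.

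The knockout sample came from C57BL6 mice homozygous for a floxed b-catenin gene and carrying a K14-driven Cre, which deletes the gene in keratinocytes that express the basal keratin K14. The control sample came from littermates with the same floxed alleles and no Cre. All mice were on a low calcium diet and were 3 months old when 2 full-thickness wounds were made on the back with a 6-mm punch. The wounds were cut out 3 days later with an 8-mm punch, so each sample also held wound edge and adjoining skin. The series description says that each sample held RNA from 3 mice and also gives n = 3. The files used here hold 1 array per genotype, so the 3 was read as the mice pooled for an array. The comparison asks how a healing wound differs when its epidermis lacks beta-catenin. Every difference below is between 2 arrays, has no error estimate and was not tested.

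MAP kinases of the ERK, JNK and p38 families relay growth factor, cytokine and stress signals to the nucleus, and they are active when a threonine and a tyrosine of their activation loop both carry phosphate. Dual-specificity phosphatases remove both phosphates. Many of their genes are themselves induced by MAP kinase signalling, which makes them a negative feedback as well as a readout of recent signalling. In skin wounds, ERK signalling from growth factor receptors takes part in keratinocyte migration and proliferation, and the stress kinases take part in the inflammatory response.

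The knockout array was somewhat dimmer before normalization, with a mean intensity of 734.4 in the knockout array and 810.8 in the control array. Of the 3504 probes with an intensity of at least 1000 on both arrays, 2926 read lower in the knockout array, with a median log2 ratio of -0.17. After normalization the median of these probes was 0.02. A probe was called detected where fewer than 1% of the negative control beads were as bright, which required an intensity of at least 177.9 in the knockout array and 181.8 in the control array. The keratinocyte markers fixed for the tissue check were all detected on both arrays, 8 of 8, with Krt14 at 34421 in the knockout array and 34898.8 in the control array. The targeted gene, Ctnnb1, read 2300.6 in the knockout array and 2629.9 in the control array on its brighter probe (log2 fold 0.01 after normalization). Its other probe read 984.9 in the knockout array and 1267.3 in the control array (log2 fold -0.17). Neither probe checks the genotype: whether they lie inside the deleted part is not given in the files, and the dermal and immune cells of the sample keep the gene. Marker genes of cells other than keratinocytes, each read by its brightest probe, also differed. Slow skeletal muscle markers were at least 1.5-fold higher in the knockout array in 6 of 6 genes, beside 3.51% of all 9705 detected genes. Of these, Tnni1 and Myh7 were detected in the knockout array alone, so their place in the count is tied to their direction. In the authors' normalized intensities 4 of the 6 were 1.5-fold higher. The summed intensity was 15440.5 in the knockout array and 2900.8 in the control array. Of 4 red blood cell markers, 3 were lower by 1.5-fold or more, beside 4.47% of all detected genes. The fourth, Slc4a1, had a log2 fold of 0.16. Their sums were 6549 in the knockout array and 23074.2 in the control array. Most of this was Hba-a1, at 5890.8 in the knockout array and 21783 in the control array. Of 5 fast muscle markers, 1 was at least 1.5-fold higher and none lower by as much, with a median log2 fold of 0.10 and sums of 44413.1 in the knockout array and 46404.5 in the control array.

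Of the 17 Dusp probes, 13 were detected on at least 1 array and 12 on both, and each of the 9 genes with a probe had at least 1 detected probe. Dusp1 was the phosphatase with the lowest ratio, 1.48-fold lower in the knockout array, and Dusp4 the one with the highest, 1.47-fold higher on its brighter probe. The other genes lay within 1.36-fold on all their detected probes. The members had no common direction. After normalization 8 detected probes lay above 0 and 5 below, with a median log2 fold of 0.04 against 0.01 over all 12956 detected probes. By the fixed rule of at least 1.5-fold, 1 member probe was higher in the knockout array (a Dusp4 probe), beside 3.93% of all detected probes. None of the 13 was 1.5-fold lower, beside 4.65% of all detected probes. With so few probes these counts are near the background, so they give no result about the family as a group, and the values of single genes follow.

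**Figure D1:**
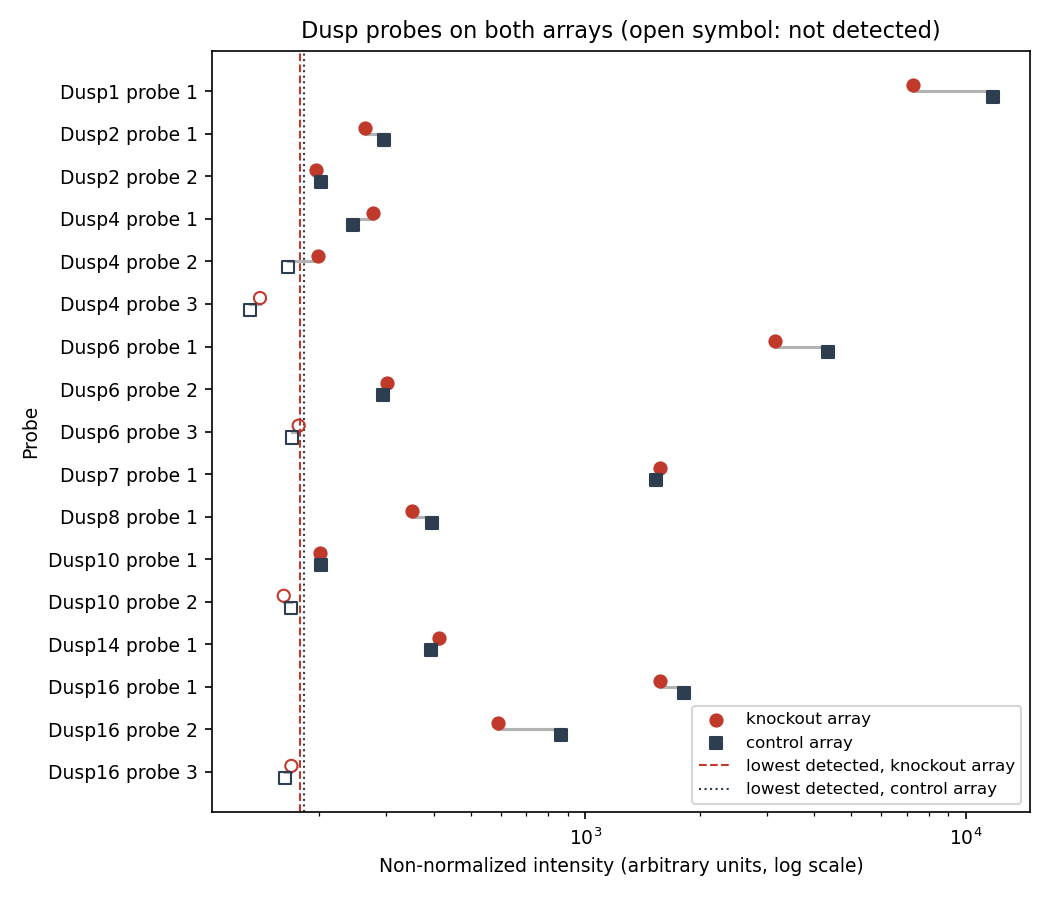
Non-normalized intensity (log axis) of each of the 17 Dusp probes in the knockout array (red circles) and the control array (dark squares). Dashed and dotted lines mark the lowest detected intensity, 177.9 in the knockout array and 181.8 in the control array, and open symbols are not detected. The widest gaps among detected probes are those of Dusp1, Dusp6 probe 1 and Dusp16 probe 2, all with the knockout array on the left.

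Dusp1, Dusp2, Dusp4 and Dusp5 encode the nuclear, inducible phosphatases of the family. Dusp1 (chr17:26505591-26508472, GRCm38.p6), also called MKP-1, is an immediate-early gene that growth factors, stress and glucocorticoids induce, and its product acts on p38 and JNK as well as ERK. Its single probe read 7288.4 in the knockout array and 11769.6 in the control array before normalization. In the authors' normalized intensities it read 7320.4 in the knockout array and 11001.9 in the control array. The normalized log2 fold was -0.57. This lies just short of the 1.5-fold limit, and the call depends on the scaling: the ratio was 1.48-fold lower in the reported values, at the limit (1.5-fold lower) in the authors' intensities and 1.61-fold lower without normalization, where the median of all detected probes was itself at -0.13. Relative to that median the unnormalized log2 fold of Dusp1 was -0.56. The direction was the same under all 6 ways of scaling the arrays.

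Few bright probes were as low in the knockout array as Dusp1. Of the 3504 probes of intensity at least 1000 on both arrays, 42 (1.2%) had a log2 fold as low as that of Dusp1 or lower, and 0.942% were lower by 1.5-fold or more. In the authors' intensities 0.685% of the same probes were, Dusp1 among them. The cut-off of 1000 was chosen after seeing the data. It leaves out probes that fell under it on 1 array, such as Areg (657.6 in the knockout array and 1278.1 in the control array). Over all detected probes, dim ones included, the share as low as Dusp1 was 5.13%. In whole wound RNA, fewer cells of a type and less RNA per cell cannot be told apart. Over all 9705 detected genes, 50.5% lay above 0, and 3.51% were higher and 4.47% lower by 1.5-fold or more. Macrophage markers lay below 0 in 6 of 7 genes, but only Mrc1 (-0.77) was lower by 1.5-fold or more. Their summed intensity before normalization was 44720.2 in the knockout array and 57533.6 in the control array. By brightest probe, neutrophil markers lay above 0 in 6 of 6 genes. Only Cxcr2 (0.95) was at least 1.5-fold higher that way, and none was in the authors' intensities. A dimmer detected probe of Csf3r had a log2 fold of 0.97, while its brightest probe had 0.16. The neutrophil marker sums before normalization were 51172.2 in the knockout array and 45546.1 in the control array. The part of these cells in the Dusp1 value was not tested.

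**Figure D2:**
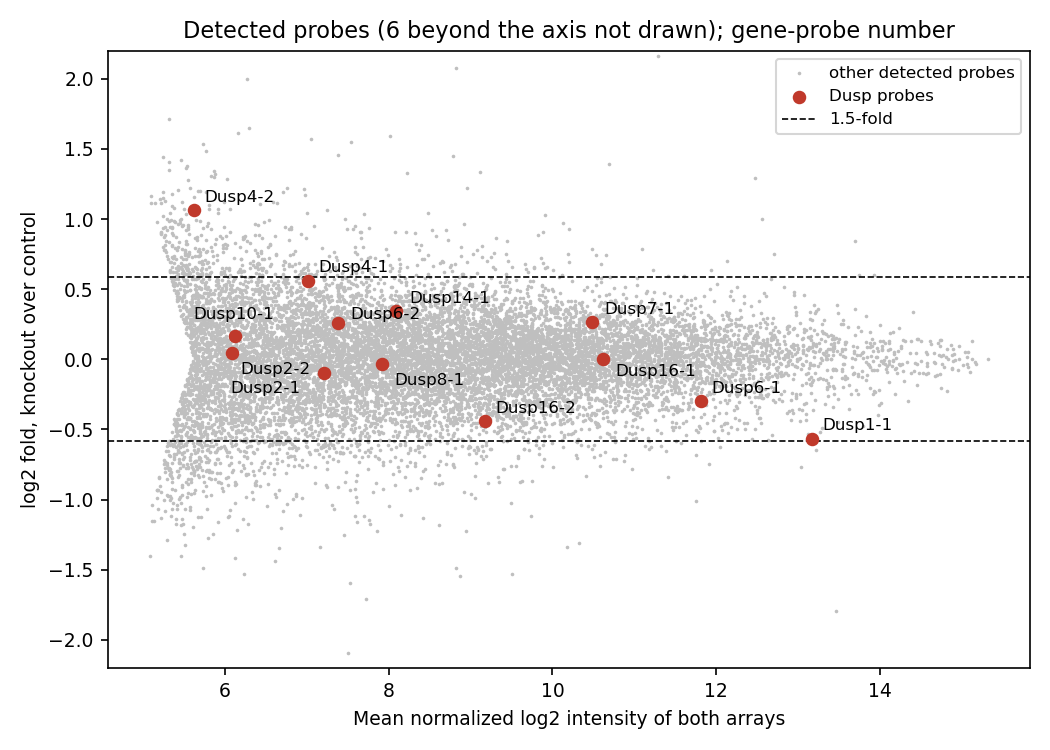
log2 fold (knockout over control, vertical axis) against the mean normalized log2 intensity of both arrays (horizontal axis) for the 12956 probes detected on at least 1 array, in grey, with the 13 detected Dusp probes in red, labelled by gene and probe number. Dashed lines mark 1.5-fold, and 6 probes beyond 2.2 on the vertical axis are not drawn. Dusp1 sits among the bright probes, just short of the lower line, which few bright probes reach, and Dusp4 probe 2 sits in the dim region, where folds scatter most.

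The promoter of Dusp1 is shown because it carries a full cyclic AMP response element (CRE), the palindrome TGACGTCA bound by CREB and ATF factors, and the Dusp8 promoter because it carries the same element while Dusp8 differed little between the arrays. RefSeq promoter windows on GRCm38.p6 were matched for 9 of the 10 members, Dusp4 being the exception, and the 250 bases before the transcript start that each window uses were searched on both strands. For Dusp8, Dusp14 and Dusp16 that start lies inside the gene span given here, so the window does too, and the Dusp7 window overlaps its gene span. The element was found in Dusp1, where it begins 143 bases before that start, and 2 copies were found in Dusp8, beginning 107 and 63 bases before its window's transcript start. The Dusp1 window is chr17:26508473-26508722 on the minus strand and the Dusp8 window is chr7:142095285-142095534 on the minus strand. Capitals mark the CRE.
Dusp1: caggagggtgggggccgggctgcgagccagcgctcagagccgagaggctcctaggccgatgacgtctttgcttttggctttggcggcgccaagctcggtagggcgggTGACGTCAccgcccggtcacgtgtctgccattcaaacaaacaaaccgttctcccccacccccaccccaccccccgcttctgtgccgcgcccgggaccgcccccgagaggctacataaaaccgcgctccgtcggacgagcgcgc
Dusp8: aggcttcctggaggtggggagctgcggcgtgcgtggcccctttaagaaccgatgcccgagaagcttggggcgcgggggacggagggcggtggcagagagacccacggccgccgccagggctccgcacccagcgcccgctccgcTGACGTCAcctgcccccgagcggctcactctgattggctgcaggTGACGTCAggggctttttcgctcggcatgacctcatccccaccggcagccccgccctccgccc
A CRE was present in 1.55% of all 32851 promoter windows of this length. Among 214 detected genes with a CRE in the window, the median log2 fold was 0.00 and 3.27% were lower in the knockout array by 1.5-fold or more, beside a median of 0.00 and 4.4% for the 7661 detected genes with a promoter window. Some early response genes were also searched. Areg, an EGF receptor ligand, had 1 copy and a log2 fold of -0.88. No full CRE was found for Fosb (-1.55), Fos (-1.01), Atf3 (-0.76), Zfp36 (-0.50) or Egr2 (-0.38). As a set, the 214 detected genes with a CRE had about the same median as all genes. Whether the element is used in these wounds, and its part in the Dusp1 value, was not tested. The CArG box, the core of the serum response element, was found in Dusp5 alone among the matched members, with 2 adjoining copies, and in 1.47% of all windows. The AP-1 site TGANTCA was in none of the 9 windows and in 6.75% of all windows.

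Dusp4 (chr8:34807610-34819894), a nuclear phosphatase known as MKP-2, had the highest ratio among the members, while Dusp7 and Dusp14, given below, also stood above 0. Its brightest probe read 276.6 in the knockout array and 245.7 in the control array, a normalized log2 fold of 0.56. Its second probe read 198 in the knockout array and 165.4 in the control array, and only the knockout value was above the detection limit. The second probe's normalized difference was 2.09-fold, and against the lowest detected control value on the same background-subtracted scale it was at least 1.48-fold higher. In the authors' intensities this probe was 1.20-fold higher. It was counted because the array in which it was brighter lifted it over the limit, so its place among the detected probes is tied to its direction. The third probe was below the limit on both arrays, at 139.6 in the knockout array and 131.1 in the control array. Both detected probes were close to background, where subtracting the background widens a ratio. In the authors' values, which still contain it, the brightest probe was 1.20-fold higher, and Dusp4 (log2 fold 0.26), Dusp7 (0.25) and Dusp14 (0.24) were nearly equal there.

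Dusp2 (chr2:127336159-127338377), known as PAC1 and best known from activated lymphocytes and other immune cells, was close to equal. Its brighter probe read 264.2 in the knockout array and 295.7 in the control array, and its other probe 195.5 in the knockout array and 201.9 in the control array. The normalized log2 folds were -0.09 and 0.04. The T and B cell markers gave no common direction either, with 2 of 3 detected genes above 0, and Cd79a, a marker of B cells, was not detected on either array.

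Dusp6 and Dusp7 encode cytoplasmic phosphatases that act mainly on ERK, and Dusp6, or MKP-3, is a widely used readout of ERK activity. The brightest Dusp6 probe (chr10:99263231-99267489) read 3146.5 in the knockout array and 4358.4 in the control array, a log2 fold of -0.30. Its second detected probe read 300.5 in the knockout array and 294.6 in the control array, a log2 fold of 0.26, so the 2 detected probes of Dusp6 disagreed in direction. Among the probes of intensity at least 1000 on both arrays, 8.76% had a log2 fold as low as the brightest Dusp6 probe or lower. The third Dusp6 probe, at 176.4 in the knockout array and 169.8 in the control array, fell just under the detection limits, while the dimmest probes just inside them on both arrays were the second of Dusp2 and the first of Dusp10, at 195.5 to 201.9. Dusp7 (chr9:106368560-106375724) read 1573.1 in the knockout array and 1538.5 in the control array, a log2 fold of 0.27 that shrank to 0.03 without normalization.

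Dusp8, Dusp10 and Dusp16 encode phosphatases that prefer the stress kinases JNK and p38. Dusp8 (chr7:142079487-142095907) read 350.3 in the knockout array and 395.4 in the control array, a log2 fold of -0.04. The detected probe of Dusp10 (chr1:184034381-184075636), or MKP-5, read 200.5 in the knockout array and 201.4 in the control array, and its normalized log2 fold of 0.17 was -0.01 without normalization. Both genes were therefore nearly level between the arrays. Dusp16 (chr6:134715468-134807063), or MKP-7, read 1576 in the knockout array and 1822.5 in the control array on its brightest probe. Its second probe read 589 in the knockout array and 861.6 in the control array. The log2 folds were 0.00 and -0.44, so the probes of this gene differed in size, and the probe files give the same reference transcript for both apart from its version.

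Dusp14 (chr11:84048033-84069256), or MKP-6, is a small atypical member that lacks the kinase-binding domain of the others and is known as a negative regulator of T cell receptor signalling. It read 412.5 in the knockout array and 393.6 in the control array. The log2 fold was 0.34 in the reported values and 0.24 in the authors' intensities.

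**Figure D3:**
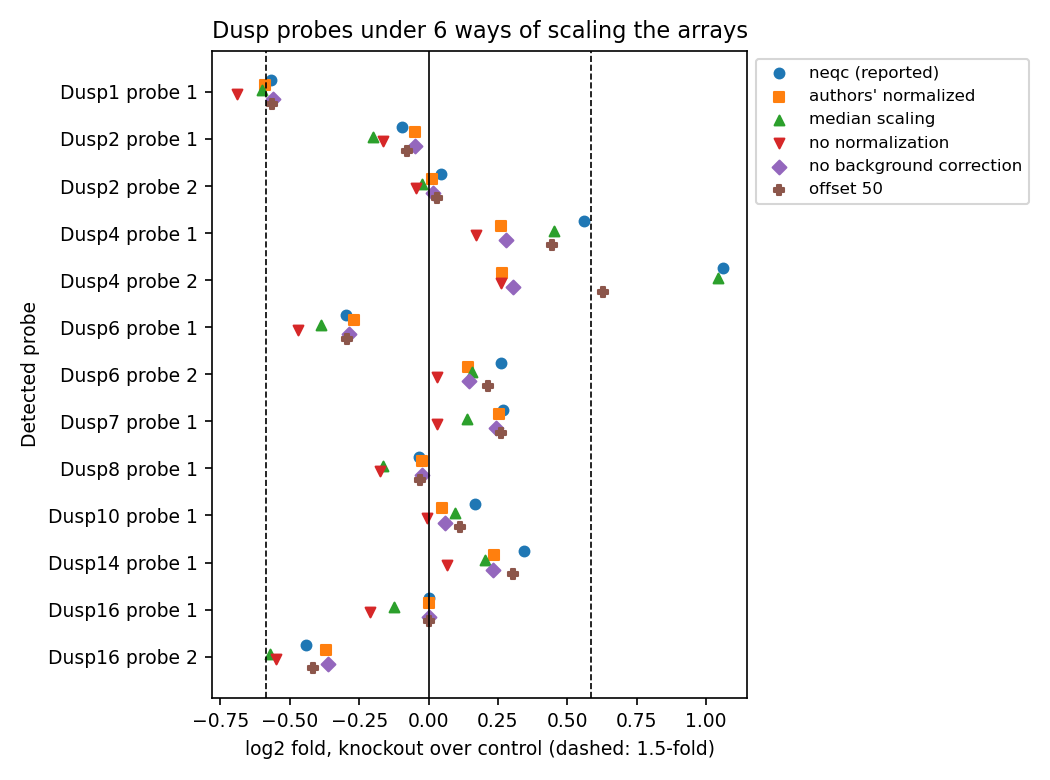
log2 fold (knockout over control) of the 13 detected Dusp probes under 6 ways of scaling the arrays, with dashed lines at 1.5-fold. Dusp1 stays close to the lower line under each scaling, while the 2 Dusp4 probes move toward 0 wherever the background is kept.

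The rest of the MAP kinase pathway was described from 7 lists, taking each gene by its brightest probe. Of the other dual-specificity phosphatases, 11 of 18 listed genes were detected, with a median log2 fold of 0.09. Dusp26, a phosphatase known from neural tissue and striated muscle, was the one gene at least 1.5-fold higher in the knockout array, and none was 1.5-fold lower, beside backgrounds of 3.51% higher and 4.47% lower over 9705 detected genes. It read 505 in the knockout array and 364.4 in the control array, which was 1.87-fold in the reported values and 1.56-fold in the authors' intensities. Dusp13, whose products are known from testis and skeletal muscle, read 297.7 in the knockout array and 265.6 in the control array (log2 fold 0.52). Both stood on the array that was brighter for slow muscle genes such as Myl2, at 4281.3 in the knockout array and 243 in the control array, and the part of muscle in these values was not tested. The mRNA capping enzyme Rngtt (-0.44) and the catalytically inactive Styx (-0.31) had the next largest log2 folds. Dusp22, named after its values were seen, stood at 0.23 on its brightest probe and at 0.72, past 1.5-fold, on its other detected probe.

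The kinases that these enzymes act on, and the kinases upstream, hardly differed. Of 10 detected MAP kinases none was 1.5-fold apart, and the median log2 fold was -0.06. The widest were the JNK genes Mapk8 (-0.38) and Mapk9 (-0.29), the p38 gene Mapk12 (0.29) and Mapk6 (0.23), which encodes an atypical MAP kinase. Mapk3, which encodes an ERK and was named after its value was seen, stood at 0.19. All 6 detected MAP2 kinases lay between -0.11 and 0.24, from Map2k5 to Map2k2, with Map2k7 at 0.22 and Map2k3 at 0.20. The 12 detected MAP3 kinases, Raf and Ras genes had a median of -0.03 and none was 1.5-fold apart, with Hras at 0.30, Nras at -0.25 and Map3k12 at 0.20. The kinase-interaction-motif tyrosine phosphatases Ptpn5, Ptpn7 and Ptprr, which also dephosphorylate MAP kinases, were not detected on either array.

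Of 26 detected early response and ERK output genes, 5 were lower by 1.5-fold or more and none was higher by as much, beside the same backgrounds. Of these 5, 4 were detected on both arrays, and the other, Tgfa, passed through the control array alone. In all, 16 genes lay below 0 and 10 above, with a median log2 fold of -0.25 (-0.15 in the authors' intensities, -0.20 with background-subtracted bounds for the single-array genes, and -0.07 with no detection filter) against 0.00 for all detected genes. Earlier results on these arrays had already shown Fosb and Areg among the lower genes, so the list is not independent evidence of its direction. The AP-1 gene Fosb read 382.9 in the knockout array and 1002 in the control array (log2 fold -1.55), and Fos read 2385.3 in the knockout array and 5327.1 in the control array (-1.01). Areg read 657.6 in the knockout array and 1278.1 in the control array (-0.88). The stress-induced factor Atf3 read 356.7 in the knockout array and 583.3 in the control array (-0.76). Tgfa, named after its value was seen, read 160.3 in the knockout array and 181.9 in the control array and was too dim to give a bound. In the authors' intensities 3 genes of this list were lower by 1.5-fold or more, namely Fosb, Fos and Areg. Etv4 and Etv5, which like Dusp6 are commonly read as ERK targets and were named after their values were seen, stood at 0.17 and 0.11.

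Of the 10 listed feedback inhibitors of receptor and ERK signalling, 5 were detected, and 4 of these lay below 0. Errfi1, an inhibitor of the EGF receptor, read 4921.4 in the knockout array and 7460.3 in the control array (-0.46), and Spred1, an inhibitor of Ras activation, read 1081.2 in the knockout array and 1659.8 in the control array (-0.45). Neither reached 1.5-fold. Spry4 was detected in the control array alone, at 156.8 in the knockout array and 184 in the control array, and was lower in the knockout array by at least 1.03-fold on the background-subtracted scale. Spry3 was detected in the knockout array alone, at 195.6 in the knockout array and 178.4 in the control array. It was at least 1.42-fold higher on the background-subtracted scale, but 1.11-fold higher in the authors' intensities. The list median was -0.45 with measured folds, and the same for the genes detected on both arrays. With Spry3 and Spry4 at their background-subtracted bounds it was -0.05, and in the authors' intensities it was -0.18.

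**Figure D4:**
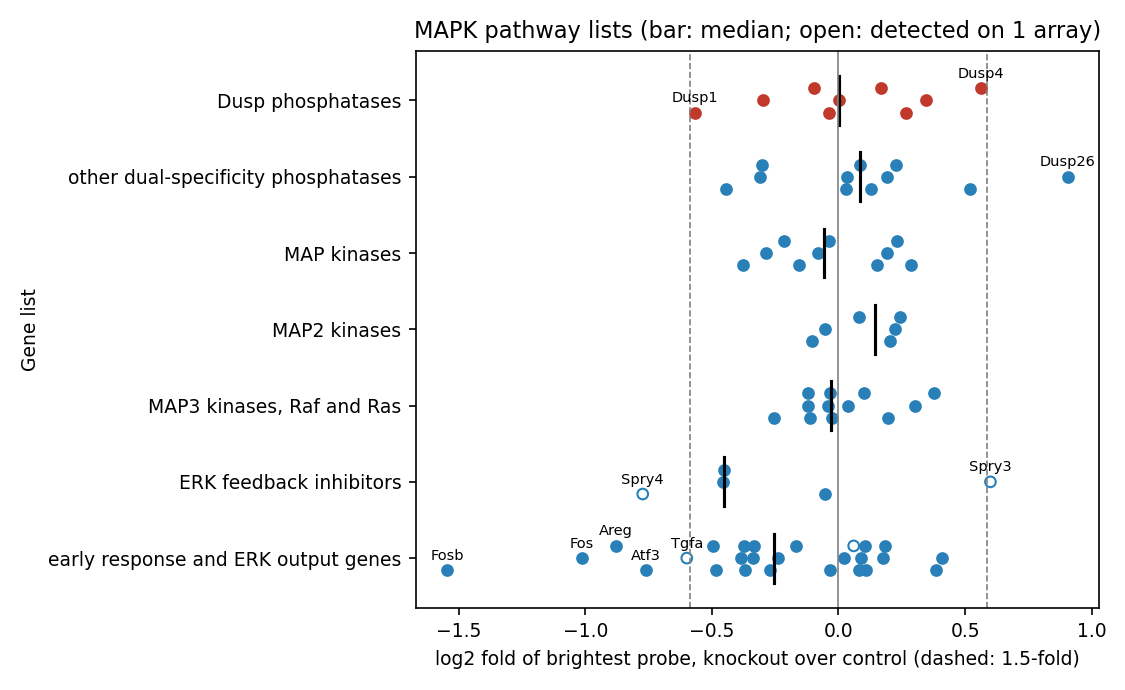
log2 fold (knockout over control) of the brightest probe of each detected gene, for the Dusp genes in red and the MAP kinase pathway lists in blue. Bars mark medians, dashed lines 1.5-fold, and open circles genes detected on 1 array. The kinase lists lie within the lines, and the early response list reaches from Fosb at -1.55 to 0.41.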

How the data were processed

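Total RNA was labelled with biotin and hybridised to an Illumina bead array, per the labels' protocols, and GenomeStudio 2011.1 is named in the submitters' processing notes. The authors deposited mean bead intensity per probe, without normalization, and a second table of normalized intensity with no method stated in the labels or headers. Both deposited tables list a detection p-value per probe that is out of row order (Spearman's rho with intensity -0.000406 in the knockout array and 0.00244 in the control array). Sorted p-values were therefore given to sorted intensities. The neqc function (limma 3.58.1, R 4.3.3) then applied a normexp background correction, an offset of 16, quantile normalization and log2. Quantile normalization hides a shift of all genes. Subtracting the background widens ratios of dim probes relative to values that keep it. Symbols were updated through RefSeq (GRCm38.p6): 25376 of 25697 probes matched. With 1 array per group no test was possible, so probes were counted past 1.5-fold where detected on at least 1 array. Levels of different probes were not compared. A probe detected on 1 array got a lower bound against the lowest detected value, or its own value if higher, on the other, all on the background-subtracted scale. Genes named are all members, Ctnnb1, up to 4 detected genes per list with the largest absolute log2 fold, and any past 1.5-fold in the other Dusp, MAP kinase and feedback lists. Some cell type markers and the early response genes searched for a CRE are named besides. Members and lists were chosen with earlier results of these data known. The number of arrays limits the precision. Some genes that this rule takes are not reported here.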

Additional observations from a re-analysis of the deposited data

How the results depend on the processing

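No paired analysis was possible because there was 1 array per group, and no replicate could be left out. For the count of Dusp probes at least 1.5-fold higher (1), the value was 0 in the authors' normalized intensities, without normalization, without background correction, for probes detected on both arrays, for genes by their brightest probe and for probes of intensity at least 1000 on both arrays (chosen after seeing the data), and 3 at the smaller fold threshold tried. For the count at least 1.5-fold lower (0), it was 1 (Dusp1) in the authors' intensities, under median scaling and without normalization, and 2 at the smaller fold threshold. The median log2 fold of the members ran from -0.15 (the bright probes) to 0.12 (no detection filter). Over the MAP kinase lists, 2 genes were at least 1.5-fold higher and 6 lower, beside 3.51% and 4.47% of all 9705 detected genes. Of the 6 lower, 5 were among the 26 detected early response genes and 1, Spry4, among the 5 detected feedback inhibitors. The 2 higher were Dusp26, among 11 detected other dual-specificity phosphatases, and Spry3, a feedback inhibitor. Spry3, Spry4 and Tgfa were detected on 1 array. The higher count was 1 in the authors' intensities, under median scaling, without background correction, with an offset of 50 and for genes detected on both arrays, and 0 without normalization. The lower count was 8 without normalization, 4 for genes detected on both arrays and 3 both without background correction and in the authors' intensities. Of the 10 settings that gave a value per gene, 1 took the mean of detected probes and the rest the brightest probe. Settings that changed only the detection filter kept the reported value of that probe, so their agreement with it was fixed beforehand. Dusp1, Dusp2, Dusp6 and Dusp8 stayed below 0 and Dusp4, Dusp7 and Dusp14 above 0 in all 10. As the mean of detected probes, Dusp2 was at -0.025 and Dusp6 at -0.019, since the second detected probe of each lay above 0. Dusp10 and Dusp16 changed side. By brightest probe Dusp4 ran from 0.17 to 0.56. It was 0.81 as the mean of its detected probes, of which 1 was detected in the knockout array alone. Dusp1, with a single probe, ran from -0.69 to -0.56. Brightness over background limits Dusp2, Dusp4 and Dusp10, whose detected probes lay close to the detection limit.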
